A study of Mus musculus with 64 samples.

Results

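The genes described here encode the proteins of the cytosolic ribosome in retinal microglia of mice given an intravitreal dose of adeno-associated virus serotype 2 (AAV2). They were chosen by gene symbol alone, as the *Rpl* and *Rps* genes with a number plus *Rplp0*, *Rplp1*, *Rplp2* and *Rpsa*, leaving out names that mark a pseudogene. This gave 85 of the 25239 genes in the count table, of which 33 belong to the small subunit and 52 to the large subunit. No expression value enters this rule, although the group was taken up with earlier results of these data known.

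All mice were Cx3cr1CreER:R26-tdTomato +/- on a C57BL/6J background. In these mice the Cx3cr1 promoter drives a tamoxifen-dependent Cre that switches on the red protein tdTomato. Tamoxifen eye drops were given to every mouse, the naive ones included, so all groups share that exposure. Mice of 3, 9 or 18 months, of both sexes, were either left naive or injected with AAV2 that carried no transgene. Per the paper, this vector held the io2 sequence, meant to inhibit TLR9, which senses viral DNA. Eyes of injected mice were taken 12 or 28 days later. The naive eyes received no sham injection, so virus and injection cannot be told apart in these libraries. In the paper, PBS-injected eyes showed no infiltrate on imaging and none of the marker changes of microglia by flow cytometry. No such eye is among these libraries. Each library came from bright tdTomato cells sorted from a single retina, the fellow eye being used for other work. After removing 2 libraries (below), 62 remained. The 3-month groups held 7 naive, 8 day-12 and 7 day-28 libraries, the 9-month groups 5, 7 and 7, and the 18-month groups 7, 7 and 7. The question set by this design is how microglial RNA differs at each day from the naive state, and whether that difference varies with age or sex.

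Ribosomal proteins assemble with ribosomal RNA in the nucleolus into a small subunit, which reads the messenger RNA, and a large subunit, which joins the amino acids. Their genes are among the most actively transcribed in growing cells. Many of their mRNAs begin with a cytosine followed by an unbroken run of pyrimidines, the terminal oligopyrimidine (TOP) sequence, through which the kinase complex mTORC1 and the RNA-binding protein Larp1 control how much of the mRNA is translated. An mRNA level is therefore only part of the control over ribosome production.

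Of the 85 genes, 64 had a start site in the RefSeq promoter table (build GRCm38.p6). A run that began with C within 3 bases of the start and held at least 5 pyrimidines was found in 26 of these (40.6%), against 13.5% of all 27025 genes with a start site. For genes with several annotated starts, the start with the longest run was taken. The motif CCGGAAG, searched on both strands from 250 bases before to 50 bases after the start, was also present in 26 (40.6%), against 9.93% of all genes. The following windows show the starts behind these counts, each with 30 bases before and 20 bases from the annotated start, read along the gene's strand. Capitals mark the longest pyrimidine run that begins with C within 3 bases of the start. They were chosen to span long, short and absent runs among genes named in the results.

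Rpl13a, chr7:45128726-45128775, minus strand: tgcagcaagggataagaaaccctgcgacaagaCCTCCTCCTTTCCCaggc
Rps18, chr17:33955646-33955695, minus strand: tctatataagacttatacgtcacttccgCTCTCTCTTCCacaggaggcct
Rps6, chr4:86857348-86857397, minus strand: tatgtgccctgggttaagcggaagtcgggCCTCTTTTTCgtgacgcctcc
Rps9, chr7:3704011-3704060, plus strand: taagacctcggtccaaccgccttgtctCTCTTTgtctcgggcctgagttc
Rps27l, chr9:66946056-66946105, plus strand: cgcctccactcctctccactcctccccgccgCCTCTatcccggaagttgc
Rps19, chr7:24884646-24884695, plus strand: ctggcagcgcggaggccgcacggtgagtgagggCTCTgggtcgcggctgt
Rpl41, chr10:128549149-128549198, minus strand: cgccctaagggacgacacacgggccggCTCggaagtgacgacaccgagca
Rpl7l1, chr17:46782637-46782686, minus strand: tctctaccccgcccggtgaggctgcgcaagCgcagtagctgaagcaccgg

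The marked run was 14 bases long in *Rpl13a*, 11 in *Rps18*, 10 in *Rps6*, 6 in *Rps9* and 5 in *Rps27l*. In *Rps9* further pyrimidines lie just before the marked C. It stopped after 4 bases in *Rps19* and 3 in *Rpl41*, below the length counted here, and *Rpl7l1*, a paralog of the large-subunit gene *Rpl7*, had a lone C. A run at the annotated start is a description of these letters and not a measured TOP mRNA.

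Total counts per library ran from 1468478 to 9836173 (median 4188992) in the counts that the authors had adjusted for collection day, so 3 counts stood for 0.305 CPM (counts scaled to a common library size) in the deepest and 2.04 CPM in the shallowest library. Intervals of this kind cover counting error only. The 8 microglial markers, *P2ry12* and *Tmem119* among them, were above 0 in every library. *Xist*, expressed from the inactive X chromosome, lay between 107 and 412 CPM in the 32 female libraries and between 0 and 2.63 CPM in the 30 male libraries. In the 2 libraries left out, the sex-linked genes went against the labelled sex. These were 9-month male day 28 replicate 1, which has no adjusted column, and 18-month female day 28 replicate 1.

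Of the 85 genes, 82 passed the filter on low counts and were tested among 13584 genes. *Rpl26* had 0 counts in all 62 libraries, *Rpl10l* had at most 1 count and was above 0 in 2 libraries, and *Rpl3l*, a form known from striated muscle, had at most 12 counts and was above 0 in 10 libraries. The level of the 82 was summarised as their mean log2 CPM, with TMM scaling of library sizes. As a share of all counts, the genes took between 0.328% and 1.25% of a library.

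The counts were spread unevenly among the genes. The 10 with the most counts, *Rps3*, *Rpl4*, *Rps9* and *Rpl32* among them, held 47.3% of all counts of the group. Mean log2 CPM ran from 0.59 for *Rpl28* to 8.94 for *Rps3*, with a median of 5.18, and 19 genes lay under 3 while 17 lay at 7 or above. Per kilobase of coding sequence, *Rpl41*, whose coding sequence of 78 bases is the shortest of the group, was highest at a log2 level of 11.5, followed by *Rps27l* at 9.84. Reads were counted over gene models and not over the coding sequence alone, so a short coding sequence raises this value. Without the division *Rpl41* had a mean log2 CPM of 7.82, below *Rps3*. The order of the genes hardly differed between naive and day-12 libraries, with Pearson's r of 0.99 between the mean levels of the 82 genes. That value is across genes of shared libraries, which are not independent replicates.

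Ribosomal protein genes have many processed pseudogenes, so it was also measured how well their reads can be placed. For each gene, every 75-base stretch that touched the coding sequence was looked up in all other annotated transcripts, 75 bases being the read length. Stretches at its ends reach past the coding sequence, which weighs most in short genes such as *Rpl41*. The share found in no other gene was taken as the unique share of the gene. The median unique share was 35.8%. It was under 50% for 55 genes and under 10% for 7, namely *Rps27*, *Rpl5*, *Rps12*, *Rpl12*, *Rpl10*, *Rpl9* and *Rpl24*. Of the 85 genes 4 were unique throughout, *Rps3* and *Rpl39l* among them.

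Genes with a higher unique share had more counts. The 18 tested genes with under 20% unique had a median log2 CPM of 2.26, the 36 genes from 20% to under 50% had 5.11, the 12 genes from 50% to under 80% had 5.98, and the 14 genes at 80% or more had 7.82. Across 80 genes with a value, Pearson's r was 0.63 and Spearman's rho 0.67, and per kilobase of coding sequence they were 0.69 and 0.73. These points share libraries and annotation and carry no test. *Rps6*, the substrate by which S6 kinase activity is usually read, illustrates the low end with 14.6% unique and a median of 3.91 CPM in 3-month naive libraries, where *Rps3* had 367 CPM. How reads that match several places were counted is not given in the sources used here, so a low count of such a gene is no measure of low expression, and changes below are within a gene. *Rpl32l* and *Rps4l* had no coding sequence in the annotation searched, so sharing between *Rpl32* and *Rpl32l* was not measured and both are uncertain.

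**Figure D1:**
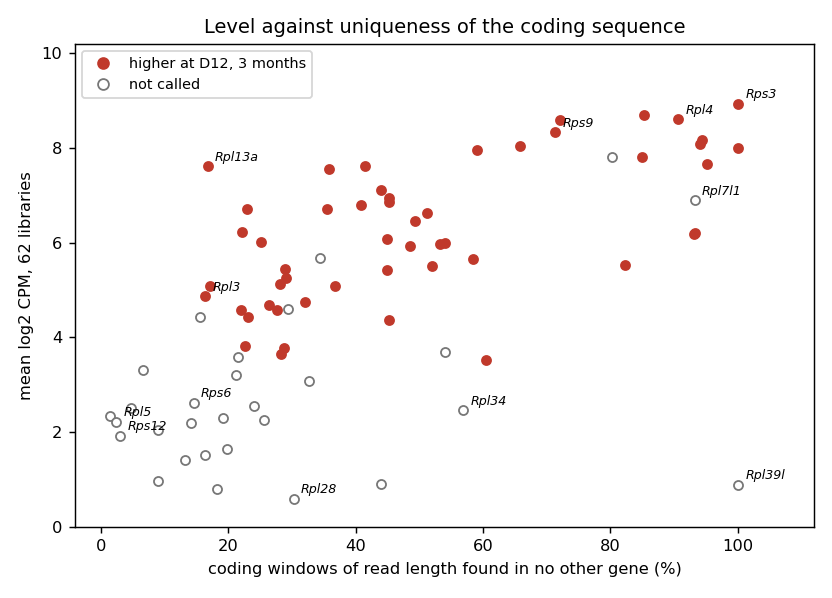
Mean log2 CPM over 62 libraries (vertical axis) against unique share (horizontal axis), 1 point per gene for 80 tested genes. The unique share is the percent of 75-base windows touching the coding sequence that were found in no other annotated gene. Points are filled red where the gene rose at day 12 of 3 months and open where it was not called. Median levels run from 2.26 for genes under 20% unique to 7.82 for genes at 80% or more.

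Within groups the genes moved together. After the mean of each age, sex and day was removed, the correlation of each gene with the mean of the other tested genes over 62 libraries had a median of 0.785 and exceeded 0.5 in 64 of 82 genes, reaching 0.95. It was -0.11 for *Rpl10a*, -0.09 for *Rpl7l1*, 0.03 for *Rpl39l* and 0.07 for *Rpl28*. Counts without the authors' adjustment, centred within group and collection day, gave a median of 0.8 with 61 genes over 0.5. So the level of the whole set differed between libraries of the same group, and a few libraries stood far from the others.

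The libraries were collected on 2 days. Before the adjustment, the mean level was 4.46 in the 27 libraries of the first day and 5.35 in the 35 of the second, a difference within groups of 0.825 over the 18 groups of age, sex and day. After it the means were 4.98 and 5.04 and the difference within groups was 0.00355. Each change below is therefore also given within each collection day. Besides this, 5 libraries whose deposited column names begin with F, where the rest begin with other letters, stood at or near the ends of their groups. The 3-month female naive replicate 4 was at 3.79, with the 6 other naive libraries of that age between 4.37 and 4.88. The 9-month male naive replicate 2 was at 3.71, against 4.58 to 4.84 in the 4 others. The 18-month female day 12 replicate 4 was at 6.06 and the 18-month male day 12 replicate 3 at 4.65, against 4.59 to 5.59 in the 5 others. The 18-month male day 28 replicate 4 was at 4.23, against 4.88 to 5.28 in the 6 others, and this library has a title of day 28 but a time label of day 12. What the letter stands for is not given, and counts of changed genes are repeated without these 5 libraries as an alternative added after seeing the data.

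**Figure D2:**
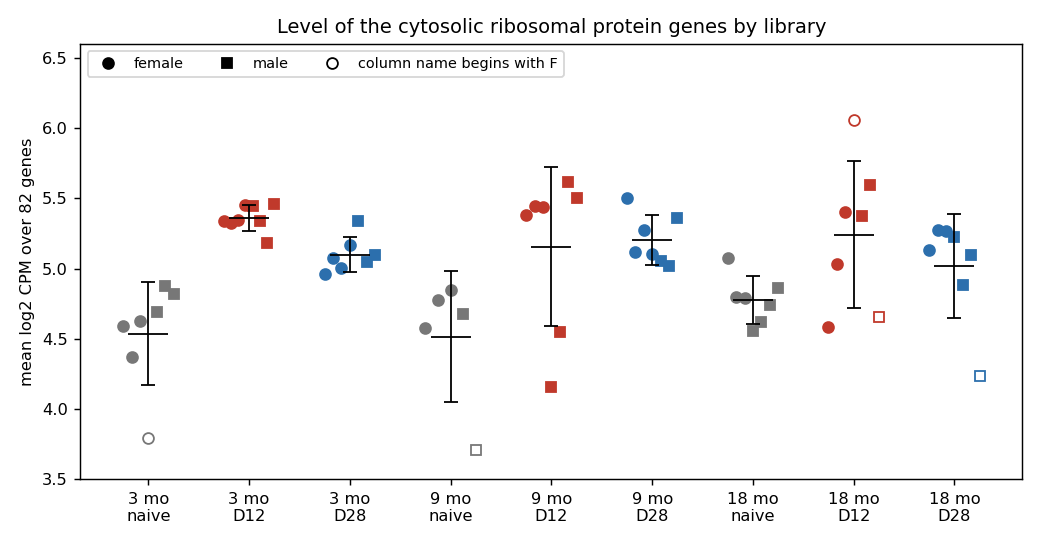
Mean log2 CPM of the 82 tested ribosomal protein genes (vertical axis) in each library, by age and day (horizontal axis; D12 and D28 are days 12 and 28), with circles for females, squares for males, open symbols for F-named columns, and the group mean with SD in black. In 3-month mice all day-12 libraries (5.18 to 5.46) lie above all naive libraries (3.79 to 4.88), whereas day-12 libraries at 9 and 18 months spread from 4.16 to 6.06.

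At 3 months the ribosomal protein genes were higher at day 12 almost throughout. The mean level was 3.79, 4.63 and 4.88 (lowest, median, highest) in naive libraries and 5.18, 5.34 and 5.46 at day 12, so the groups did not overlap. Group means were 4.54 ± 0.367 (SD, n = 7) and 5.36 ± 0.0939 (SD, n = 8), and the share of all counts was 0.513% ± 0.0991 in naive libraries and 0.958% ± 0.104 at day 12. The difference of the mean level, averaged over the sexes, was 0.793. Within the first collection day it was 0.778 and within the second 0.869, and in counts without the adjustment 0.722 and 0.95.

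By edgeR's quasi-likelihood test with Benjamini-Hochberg adjustment over all genes, 52 of 82 rose (63.4%) and 0 fell, where 16.6% of all genes tested passed in either direction and 9.42% passed as higher. The median log2 fold change was 0.902 over the 82 genes and -0.001 over all genes, 76 of 82 had a positive value and 29 of those that rose exceeded 1. An unadjusted p under 0.05 was reached by 60 of the 82, 59 of them higher, and by 3778 of the 13584 genes tested, 2040 of them higher. DESeq2 called 53 of the 82, all higher, and 2476 of all genes. Every day-12 library lay above every naive library for 41 genes (50%), against 3.79% of all genes. In the small subunit 24 of 33 rose, with a median of 1.006, and in the large subunit 28 of 49, with a median of 0.85. The libraries are bulk RNA of sorted cells, so a change in which cells were caught and a change in RNA per cell cannot be told apart.

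Markers of other cells differed between the same groups. The summed level of 7 T-cell genes was 0, 1.28 and 30.7 CPM (lowest, median, highest) in naive libraries and 57.6, 101 and 335 CPM at day 12, and 6 of the 7 rose, among them *Cd3e* by 5.38 ± 0.91 (SE) on the log2 scale (adjusted p = 1.36e-05). The 8 microglial genes summed to 27600, 33600 and 43700 CPM and then 17100, 20200 and 23900 CPM, with 5 of 8 lower and 1, *Aif1*, higher. The 6 photoreceptor genes had medians of 1650 and 819 CPM, and none of them passed. The 3 Müller glia genes summed to 245, 310 and 350 CPM and then 358, 402 and 516 CPM, with 1, *Slc1a3*, higher. The 4 monocyte genes summed to 0.235, 11.1 and 12.1 CPM and then 4.76, 28.4 and 342 CPM, with 1 of the 3 tested, *Ly6c2*, higher. The 6 proliferation genes had medians of 40.2 and 79.9 CPM and none passed, nor did the 3 tested B-cell genes. Of 4 neutrophil markers, *S100a9* was at 0 in 60 of 62 libraries, *Retnlg* and *Ly6g* in 61 each, and *S100a8* in 41, with at most 30.6 CPM. The part of any of these in the higher ribosomal protein counts was not tested.

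In the small subunit, *Rps9* was measured at 144, 241 and 254 CPM (lowest, median, highest) in 3-month naive libraries and at 391, 465 and 514 CPM at day 12. The ranges were well apart, and the log2 fold change was 1.05 ± 0.16 (SE; adjusted p = 1.29e-06). *Rps20* had the largest log2 fold change of the group, at 1.63 ± 0.26 (adjusted p = 4.04e-06), from 27.6, 67.2 and 105 CPM to 161, 213 and 246 CPM. *Rps19*, mutated in many cases of Diamond-Blackfan anaemia, rose by 1.37 ± 0.23 (adjusted p = 1.15e-05), from 50.9, 134 and 160 CPM to 263, 326 and 348 CPM. *Rpsa*, which also serves as a laminin receptor, rose by 1.1 ± 0.28 (adjusted p = 0.00351), from 7.41, 15.7 and 21.7 CPM to 13.6, 29.9 and 53.2 CPM, with some overlap.

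In the large subunit, *Rpl32* had the smallest adjusted p. Its naive libraries were at 69.5, 179 and 201 CPM and its day-12 libraries at 344, 452 and 576 CPM, a log2 fold change of 1.51 ± 0.22 (adjusted p = 6.16e-07). The lowest naive value was that of female replicate 4, and the remaining naive libraries were still below all day-12 libraries. *Rpl41*, a peptide rather than a folded protein, rose from 50.7, 143 and 209 CPM to 297, 338 and 431 CPM (1.36 ± 0.24, adjusted p = 1.94e-05). *Rpl13a*, which is released from the ribosome in interferon-treated human myeloid cells to silence inflammatory mRNAs, went from 68.3, 135 and 167 CPM to 210, 303 and 349 CPM (1.18 ± 0.2, adjusted p = 1.08e-05). The acidic stalk proteins, which recruit elongation factors, rose together, with 0.95 ± 0.15 for *Rplp0* (adjusted p = 2.6e-06), 0.97 ± 0.25 for *Rplp1* (adjusted p = 0.00391) and 0.93 ± 0.27 for *Rplp2* (adjusted p = 0.0122). *Rplp0*, often used to normalise PCR, had 146, 175 and 215 CPM in naive libraries and 282, 326 and 447 CPM at day 12, with no overlap.

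The 30 tested genes that did not pass were mostly those with few counts. Of the 44 genes with a mean log2 CPM of 5 or more, 40 rose (median 1.01), and of the 38 below 5, 12 rose (median 0.7). By unique share, 21 of 26 genes at 50% or more rose and 30 of 54 below it, with medians of 0.98 and 0.85. *Rps6* had 2.79, 3.91 and 5.49 CPM in naive libraries and 1.27, 5.68 and 13.7 CPM at day 12 (0.59 ± 0.37, adjusted p = 0.307). *Rpl5* and *Rpl11*, which hold back the p53 ligase Mdm2 when ribosome assembly fails, had -0.18 ± 0.35 (adjusted p = 0.811) and 0.59 ± 0.42 (adjusted p = 0.378), both at a median under 5 CPM. *Rpl10*, among the last large-subunit proteins to join, was at 0 ± 0.26 (adjusted p = 1) and *Rps27a*, made as a fusion with ubiquitin, at 0.17 ± 0.35 (adjusted p = 0.827). Of the genes with a pyrimidine run at the start 16 of 26 rose (median 0.9), and of those without a run 22 of 35 (median 0.85).

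At day 28 of the 3-month mice the genes were still higher than in naive mice. The mean level was 4.96, 5.08 and 5.34, all above the highest naive library at 4.88, and 5.1 ± 0.124 on average (SD, n = 7). The difference from naive was 0.539, and within the 2 collection days it was 0.577 and 0.552 (0.535 and 0.616 without the adjustment). In the edgeR test 13 of 82 rose (15.9%) and 0 fell, where 2.78% of all genes passed and 1.99% passed as higher. The median log2 fold change was 0.55 against -0.013 over all genes, and 79 of 82 were positive. Every day-28 library lay above every naive library for 23 genes (28%), against 1.69% of all genes.

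*Rpl32* was at 265, 295 and 421 CPM on day 28 (1.01 ± 0.23, adjusted p = 0.0043), again apart from the naive range. *Rpl4* went from 240, 281 and 332 CPM to 371, 403 and 480 CPM (0.57 ± 0.13, adjusted p = 0.00472), also with no overlap. *Rps9* was at 284, 357 and 427 CPM (0.68 ± 0.16, adjusted p = 0.00896) and *Rps18* at 67.1, 81.1 and 139 CPM (0.98 ± 0.24, adjusted p = 0.00971), the latter against 19.9, 44.5 and 62.2 CPM in naive libraries. The count of 13 was sensitive to single libraries. It ranged from 4 without male day 28 replicate 1 to 18 without female naive replicate 3. It was 5 without male naive replicate 1 or 3, 6 without female naive replicate 4, 7 without female naive replicate 2 or female day 28 replicate 4, and 8 without male naive replicate 2 or female day 28 replicate 2. The summed T-cell genes stood at 19.6, 27.1 and 90.4 CPM at day 28, with 3 of 7 higher. Of the 8 microglial genes 1 fell, and none of the 6 proliferation genes passed. The part of these was not tested.

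**Figure D3:**
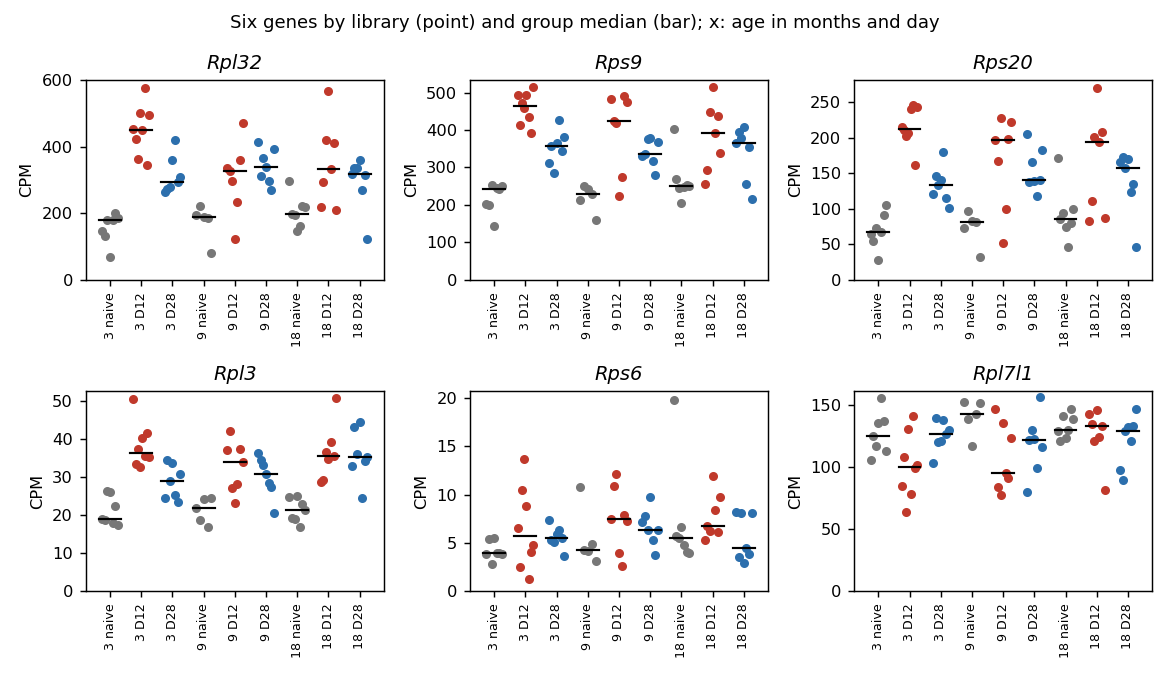
CPM (vertical axes, from 0) of *Rpl32*, *Rps9*, *Rps20*, *Rpl3*, *Rps6* and *Rpl7l1* in each library (points) by age in months and day (horizontal axes), with group medians as bars. All 3-month day-12 libraries of *Rpl32* (344 to 576 CPM) lie above all naive libraries of that age (69.5 to 201 CPM), whereas those of *Rps6* (1.27 to 13.7 CPM) and *Rpl7l1* (64.1 to 141 CPM) overlap the naive ranges.

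At 9 months the day-12 libraries were less uniform. The mean level of the 5 naive libraries was 4.58, 4.78 and 4.84 in females and 4.68 and 3.71 in males. At day 12 it was 4.16, 5.44 and 5.62 (lowest, median, highest), and 5.16 ± 0.565 on average (SD, n = 7) against 4.52 ± 0.464 (SD, n = 5). Male replicates 1 and 2 at day 12, at 4.16 and 4.55, lay within the naive range, and the other 5 lay above it. The difference was 0.728, but within the first collection day 0.301 and within the second 1.02 (0.283 and 1.14 without the adjustment).

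In the edgeR test 42 of 82 rose (51.2%) and 0 fell, where 18.4% of all genes passed and 10.5% passed as higher, with a median log2 fold change of 0.798 against 0.061 over all genes. Every day-12 library lay above every naive library for only 1 gene (1.22%), against 2.66% of all genes. The count rested on male naive replicate 2, without which 6 of 82 passed. Without the 5 libraries of F-named columns it was 17. *Rps9* (0.92 ± 0.18, adjusted p = 0.000198) passed whichever 1 library was left out, as did *Rplp0* (0.65 ± 0.17, adjusted p = 0.00437).

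*Rps9* was at 213, 251 and 242 CPM in the female and 228 and 160 CPM in the male naive libraries, and at 224, 425 and 490 CPM at day 12, so that only the lowest day-12 library lay within the naive range. *Rps20* was at 72.1, 97 and 82.8 CPM in female and 81 and 32.5 CPM in male naive libraries and at 51, 196 and 227 CPM at day 12 (1.28 ± 0.3, adjusted p = 0.00147). Its lowest naive library was again male replicate 2. The 6 proliferation genes summed to 11.2, 36.7 and 70.5 CPM (lowest, median, highest) in naive and 8.36, 470 and 619 CPM in day-12 libraries. These sums overlapped, and 5 of 6 genes rose. The 6 photoreceptor genes all fell, and the T-cell sum was 0 to 6.03 CPM and then 50.3 to 158 CPM. The microglial genes had medians of 32500 and 14400 CPM, with 7 of 8 lower and 1 higher. The monocyte genes had medians of 16.3 and 59.4 CPM, with 1 of the 3 tested higher. The Müller glia genes had medians of 325 and 282 CPM, with 1 of 3 higher and 2 lower. Whether any of these has a part in the ribosomal protein counts was not tested.

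At day 28 the 9-month libraries were closer together, with mean levels of 5.02, 5.12 and 5.5, all above the highest naive library. The difference was 0.734, and 0.651 and 0.731 within the collection days (0.591 and 0.835 without the adjustment). In the edgeR test 26 of 82 rose (31.7%) and 0 fell, where 4% of all genes passed and 2.47% passed as higher. The median log2 fold change was 0.773 against 0.04 over all genes. Every day-28 library lay above every naive library for 27 genes (32.9%), against 1.83% of all genes. The T-cell genes summed to 0 to 6.03 CPM in naive and 25 to 184 CPM in day-28 libraries with 6 of 7 higher, and 2 of 8 microglial genes fell. Their part was not tested.

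The smallest adjusted p-values were those of *Rpl41*, *Rps21* and *Rpl37a*, short proteins of both subunits. *Rpl41* was at 182, 188 and 169 CPM in female and 116 and 54.9 CPM in male naive libraries and at 241, 258 and 388 CPM at day 28 (1.27 ± 0.28, adjusted p = 0.00313). *Rps21* was at 59, 66 and 46.4 CPM in female and 41.9 and 17.7 CPM in male naive libraries and at 73.4, 102 and 168 CPM at day 28 (1.41 ± 0.32, adjusted p = 0.00416). *Rpl37a* was at 34.7, 34.9 and 32.8 CPM in female and 26.3 and 14.8 CPM in male naive libraries and at 44.4, 65.2 and 99.3 CPM at day 28 (1.35 ± 0.31, adjusted p = 0.00474). In each of the 3 genes male naive replicate 2 was lowest, yet every day-28 library was also above the 4 other naive libraries. Without that library 0 of 82 passed by edgeR. The count was 15 without female naive replicate 1, 13 without female day 28 replicate 1, 12 without male day 28 replicate 4 and 3 without the 5 libraries of F-named columns. The mean difference over the genes without male naive replicate 2 was 0.491.

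**Figure D4:**
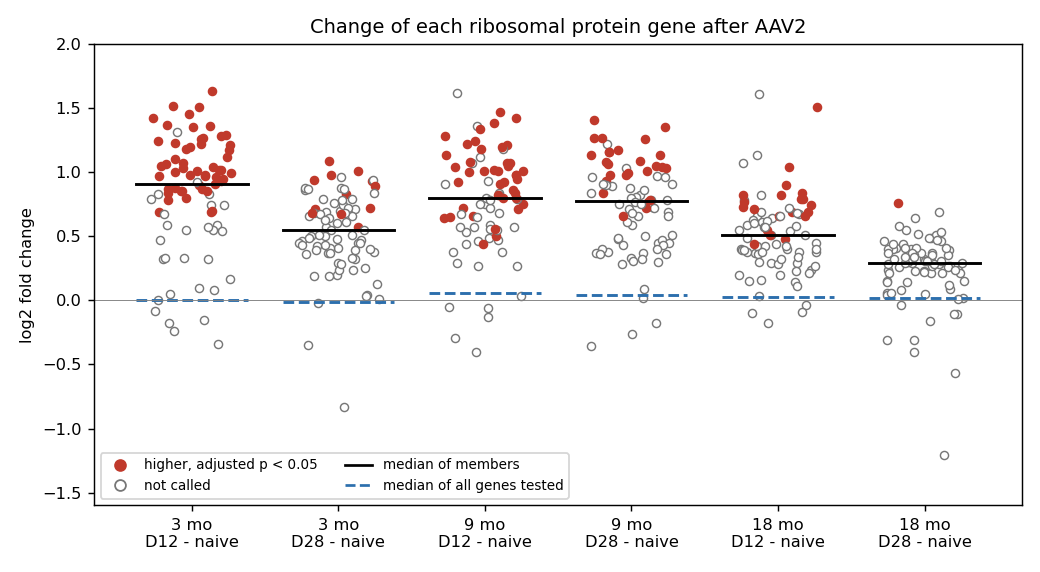
Log2 fold change against naive (vertical axis) of the tested genes at days 12 and 28 (D12, D28) for each age, filled red where a gene rose at an adjusted p under 0.05 and open where it was not called, with the median of the ribosomal protein genes as a black line and that of all genes tested as a dashed line. The black lines lie at 0.902 and 0.55 at 3 months, 0.798 and 0.773 at 9 months and 0.506 and 0.286 at 18 months; 3 values of *Rpl39l*, a gene near the detection limit, lie outside the drawn range.

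At 18 months fewer of the genes passed. The naive libraries had mean levels of 4.55, 4.79 and 5.07 and the day-12 libraries 4.59, 5.37 and 6.06, which overlapped. Group means were 4.78 ± 0.169 and 5.24 ± 0.525 (SD, n = 7 each), and the difference was 0.448. Within the collection days it was 0.248 and 0.63 (0.219 and 0.703 without the adjustment), and the groups overlapped on both. The lowest day-12 and the highest naive library were at 4.59 and 5.07 on the first day and at 4.65 and 4.86 on the second.

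In the edgeR test 20 of 82 rose (24.4%) and 0 fell, where 15.6% of all genes passed and 9.53% passed as higher, with a median of 0.506 against 0.026 over all genes. Every day-12 library lay above every naive library for 2 genes, *Rpl3* and *Rpl4* (2.44%), against 1.21% of all genes. *Rpl3*, which lies near the catalytic centre of the ribosome, was at 16.8, 21.5 and 25.1 CPM in naive and 28.9, 35.6 and 51 CPM in day-12 libraries (0.79 ± 0.17, adjusted p = 0.000588). *Rpl7* went from 56.4, 71.8 and 100 CPM to 79.2, 113 and 156 CPM (0.66 ± 0.16, adjusted p = 0.003), and *Rps2* from 27.2, 34.4 and 50.8 CPM to 35.2, 58 and 80.1 CPM (0.69 ± 0.18, adjusted p = 0.00352), both with overlap. The count of 20 fell to 7 without female day 12 replicate 4, to 8 without male day 12 replicate 2, and to 13 without female day 12 replicate 3 or male day 12 replicate 1. It reached 28 without male day 12 replicate 3. It was 11 with the library of 2 time labels placed at day 12 and 8 with libraries scaled by their totals. The proliferation genes summed to 4.6, 21.6 and 102 CPM in naive and 9.45, 391 and 918 CPM in day-12 libraries, with 5 of 6 higher. The T-cell genes summed to 0, 2.48 and 156 CPM and then 1.57, 220 and 383 CPM, with 6 of 7 higher, and both sums overlapped. The monocyte genes had medians of 26.2 and 176 CPM, with 2 of the 3 tested higher. The microglial genes had medians of 32400 and 18500 CPM, with 7 of 8 lower. The Müller glia genes had medians of 341 and 305 CPM, with 0 of 3 higher and 2 lower. The part of these was not tested.

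At day 28 of the 18-month mice the mean level was 4.23, 5.13 and 5.28 and its difference from naive 0.253, with 0.331 and 0.172 within the collection days (0.303 and 0.203 without the adjustment). In the edgeR test *Rpl3* was the 1 of 82 that rose (1.22%), where 4.82% of all genes passed and 3.14% passed as higher. It was at 24.4, 35.3 and 44.4 CPM (0.76 ± 0.17, adjusted p = 0.00297), with the lowest day-28 library just under the highest naive one. The median over the 82 genes was 0.286 against 0.022 over all genes, and 73 of 82 were positive. Every day-28 library lay above every naive library for 0 of the 82 genes, against 1.24% of all genes. The day-28 libraries lay wholly below for 0 of the 82 genes, against 101 of the 13584 genes tested. The count was 3 without female naive replicate 1, and 2 without female day 28 replicate 4, male day 28 replicate 4 or male day 28 replicate 2, and it was 7 without the 5 libraries of F-named columns. DESeq2 called 4, 1 of them, *Rpl34*, as lower at -1.22 (adjusted p = 0.0318), which edgeR gave as -1.21 ± 0.41 (adjusted p = 0.0702). The T-cell genes summed to 0, 2.48 and 156 CPM in naive and 19.1, 76.3 and 140 CPM in day-28 libraries, with 4 of 7 higher. The microglial genes had medians of 32400 and 25300 CPM, with 2 of 8 lower. None of the proliferation genes or the 3 tested monocyte genes passed. The part of these was not tested.

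Over the 6 comparisons of a day with naive, which share their naive libraries within an age, 6 genes passed as higher in 5 (*Rps20*, *Rpl41*, *Rpl32*, *Rps18* and *Rps9* among them), 9 genes in 4, 15 in 3, 17 in 2, 9 in 1 and 26 in 0. None passed as lower in any of the 6 by edgeR, and the fold changes of *Rpl7l1* were negative in all 6.

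Age by itself was compared among naive libraries. None of the 82 genes passed an adjusted p of 0.1 by edgeR at 9 against 3 months, where 0% of all genes passed. An unadjusted p under 0.05 was reached by 1 of the 82 and by 675 of the 13584 genes tested. DESeq2 called 0 of the 82 and 20 of all genes. At 18 against 3 months again 0 of 82 passed by edgeR, where 0.11% of all genes passed, and DESeq2 called 0 of the 82 and 55 of all genes. In edgeR 7 of the 82 had an unadjusted p under 0.05, all of them higher. Of the 13584 genes tested 1010 did, 578 of them higher, so the share of the 82 is near that of all genes only when both directions are counted. A positive fold change was found in 69 of the 82, against 6588 of the 13584 genes tested. The 82 genes move together between libraries, so these counts carry no test. The median log2 fold change was 0.277 against -0.011 over all genes. The smallest p was that of *Rplp0*, at 0.46 ± 0.15 (adjusted p = 0.423), with 146, 175 and 215 CPM at 3 months and 179, 213 and 465 CPM at 18 months.

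The change from naive to each day was then compared between ages, which tests the difference itself. For day 12 at 18 against 3 months, 0 of 82 passed an adjusted p of 0.1 by edgeR, where 0.155% of all genes passed. The median was -0.418 against 0.027 over all genes. Of the 82, 19 had an unadjusted p under 0.05, 18 of them with a smaller change at 18 months. Of the 13584 genes tested 1497 had one, 852 of them with a positive difference. DESeq2 called 1, *Rps4x*, the X-linked small-subunit gene, at -0.85 (adjusted p = 0.0725), which edgeR gave as -0.82 ± 0.26 (adjusted p = 0.169). *Rps4x* was at 38.6, 50.5 and 61.3 CPM in naive and 73.6, 83.4 and 139 CPM in day-12 libraries at 3 months, with no overlap. At 18 months the values were 48.5, 54 and 118 CPM and then 48.8, 64.3 and 84.5 CPM, where the highest library was a naive one. For *Rpl32* the difference of changes was -0.78 ± 0.31 (adjusted p = 0.308).

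For day 12 at 9 against 3 months 0 of 82 passed by edgeR, where 0.0368% of all genes passed, with 2 of the 82 at an unadjusted p under 0.05 and a median of -0.145. For day 28 at 9 against 3 months 0 of 82 passed by edgeR (0% of all genes), with 0 of the 82 at an unadjusted p under 0.05 and a median of 0.166. For day 28 at 18 against 3 months 0 of 82 passed by edgeR (0% of all genes), with 2 of the 82 at an unadjusted p under 0.05 and a median of -0.284. Of the 13584 genes tested, 832, 579 and 601 had an unadjusted p under 0.05 in these comparisons in turn. DESeq2 called 0 of the 82 in each of these, and 32, 14 and 4 of all genes in turn. The counts of 52, 42 and 20 at day 12 are therefore not shown to differ by age at the level of single genes.

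Males and females were compared in the same way for the change to day 12. The median log2 fold change over the genes was 1.13 in females and 0.67 in males at 3 months, 0.72 and 0.89 at 9 months, and 0.41 and 0.61 at 18 months. In the edgeR test of the difference, 0 of 82 passed at 3 months (0% of all genes), 9 months (0.00736%) or 18 months (0%). An unadjusted p under 0.05 was reached by 2, 0 and 1 of the 82, and by 760, 917 and 1141 of the 13584 genes tested. DESeq2 called 0 of the 82 at each age, and 3, 20 and 49 of all genes. The median difference, male minus female, was -0.416, 0.172 and 0.187, and without the 5 libraries of F-named columns -0.254, -0.203 and 0.705, with 1, 2 and 19 of the 82 at an unadjusted p under 0.05 and 0 passing. With the library of 2 time labels placed at day 12, the 18-month value was -0.036, and with libraries scaled by their totals the 9-month value was -0.055. At day 28 the medians were 0.72 and 0.42 at 3 months, 0.6 and 0.94 at 9 months, and 0.27 and 0.26 at 18 months, without a test.

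Some of the genes have paralogs with a name of their own, and these were set beside their partners at day 12 of 3 months. *Rpl22* (0.9 ± 0.26, adjusted p = 0.0116) and *Rpl22l1* (0.69 ± 0.25, adjusted p = 0.0458), which can replace it in the ribosome, both rose. *Rps27l*, a p53-responsive copy with 94.4% unique sequence, rose by 0.87 ± 0.3 (adjusted p = 0.0336), from 60.4, 236 and 349 CPM to 276, 396 and 625 CPM. *Rps27* itself, with 1.48% unique sequence, had 2.17, 3.99 and 6.08 CPM and then 1.27, 4.65 and 12.9 CPM (0.33 ± 0.4, adjusted p = 0.658).

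*Rpl7* rose from 53.9, 63.9 and 72.6 CPM to 107, 118 and 160 CPM (0.97 ± 0.16, adjusted p = 7.39e-06), with no overlap. *Rpl7l1*, 93.2% unique and thought to act in ribosome assembly, was at 106, 125 and 156 CPM in naive libraries and 64.1, 101 and 141 CPM at day 12 (-0.34 ± 0.15, adjusted p = 0.121). It was negative in all 6 comparisons, at -0.4 ± 0.17 (adjusted p = 0.0954) at day 12 of 9 months. With libraries scaled by their totals it was called lower at day 12 of 3 months (-0.46, adjusted p = 0.011) and of 9 months (-0.44, adjusted p = 0.0333). *Rps4x* rose by 0.85 ± 0.18 (adjusted p = 0.000329), and *Rps4l* had -0.08 ± 0.24 (adjusted p = 0.888).

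*Rpl39* rose by 1.27 ± 0.28 (adjusted p = 0.000694), from 10.1, 25.8 and 43.7 CPM to 43.9, 69.9 and 102 CPM. *Rpl39l*, known from germ cells, was near the detection limit, with 0, 1.7 and 8.07 CPM in naive and 0, 0 and 7.88 CPM in day-12 libraries of 3 months (adjusted p = 0.211). At 9 months it was at 5.71, 0 and 3.62 CPM in female and 0 and 0 CPM in male naive libraries and at 0, 3.92 and 26.3 CPM at day 12. It counts among the 42 genes there (adjusted p = 0.0336). Its fitted fold changes depend on the prior count and are not given. Differences between the members of a pair were not tested.

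**Figure D5:**
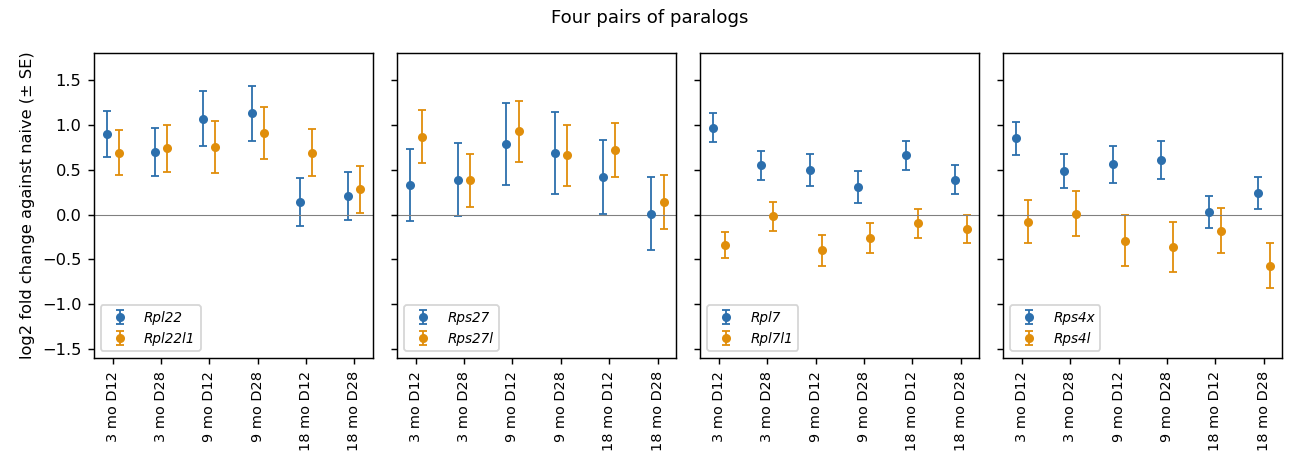
Log2 fold change against naive with its SE (vertical axis) in the 6 comparisons of a day with naive (horizontal axis) for 4 pairs of paralogs. *Rpl7* lies between 0.31 and 0.97 and *Rpl7l1* between -0.4 and -0.02, whereas *Rpl22* and *Rpl22l1* are both above 0 throughout.

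The remaining translation machinery was described with fixed lists. Of 22 genes for elongation and initiation factors and ribosome-associated proteins, many of which have TOP mRNAs too, 15 rose (68.2%, where 9.42% of all genes rose) and 0 fell at day 12 of 3 months, with a median log2 fold change of 0.854. *Pabpc1*, the cytoplasmic poly(A)-binding protein, rose by 1.65 ± 0.24 (adjusted p = 5.34e-07) and *Eif3f*, a subunit of initiation factor eIF3, by 1.53 ± 0.2 (adjusted p = 6.29e-08). *Eef1a1*, the elongation factor that brings aminoacyl-tRNA, rose by 1.18 ± 0.19 (adjusted p = 3.2e-06). *Fau*, which encodes a small-subunit protein fused to a ubiquitin-like protein and which the symbol rule does not catch, rose by 1.18 ± 0.24 (adjusted p = 0.000161). Of this list 3 rose at day 28 of 3 months (13.6%, against 1.99% of all genes). At 9 months 12 rose at day 12 (54.5%, against 10.5%) and 4 at day 28 (18.2%, against 2.47%), and at 18 months 10 at day 12 (45.5%, against 9.53%) and 3 at day 28 (13.6%, against 3.14%). By edgeR 0 fell in any of them.

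Among 25 genes that build ribosomes, 0 rose and 3 fell by edgeR at day 12 of 3 months. As 7.23% of all genes fell, these few calls do not set the list apart. A positive fold change was found in 4 of the 25 there, against 6743 of the 13584 genes tested. At day 12 of 9 and 18 months 11 and 13 of the 25 were positive. At day 12 of 3 months the median of the list was -0.488, and of the 6 with an unadjusted p under 0.05, 0 were higher. Of the 13584 genes tested 3778 had one, 2040 of them higher. The 3 that fell were *Myc*, a transcription factor that drives ribosome production (-2.26 ± 0.35, adjusted p = 1.67e-06), and *Nop56* (-1.09 ± 0.21, adjusted p = 5.95e-05) and *Nop58* (-1.04 ± 0.26, adjusted p = 0.00311), core proteins of box C/D particles that methylate ribosomal RNA. *Myc* also fell at day 12 of 9 months (-1.54 ± 0.38, adjusted p = 0.00237), the only one of the list to pass there, and none passed at day 12 of 18 months or at day 28 by edgeR.

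Of 14 regulators of translation 2, 3 and 2 rose and 1 fell at day 12 of 3, 9 and 18 months, where 9.42%, 10.5% and 9.53% of all genes rose. *Eif2ak2*, the interferon-induced kinase PKR that blocks initiation on sensing double-stranded RNA, rose at day 12 of each age, by 1.44 ± 0.27 (adjusted p = 6.22e-05), 1.26 ± 0.31 (adjusted p = 0.0026) and 1.75 ± 0.28 (adjusted p = 5.07e-06) at 3, 9 and 18 months. *Rptor*, the mTORC1 scaffold, fell at day 12 of each age, with log2 fold changes of -0.72 ± 0.25 at 3 months (adjusted p = 0.0369), -1.03 ± 0.28 at 9 months (adjusted p = 0.00583) and -1.13 ± 0.27 at 18 months (adjusted p = 0.00161). The others that rose were *Eif4g1* at 3 months (0.78 ± 0.22, adjusted p = 0.00932) and 9 months (0.85 ± 0.26, adjusted p = 0.0133), *Larp1* at 9 months (1.03 ± 0.27, adjusted p = 0.00417) and *Eif4ebp1* at 18 months (0.76 ± 0.27, adjusted p = 0.0442).

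Ribosomal proteins of the mitochondrion, encoded by a separate set of nuclear genes, served as a comparison of like size. Of 78 tested, 2 rose and 4 fell at day 12 of 3 months, where 9.42% of all genes rose and 7.23% fell, with a median of 0.025. *Mrpl54* rose by 1.04 ± 0.26 (adjusted p = 0.00294) and *Mrps18b* fell, at -0.69 ± 0.2 (adjusted p = 0.00932). Their medians at the other ages and days lay between -0.066 and 0.232, with at most 3 rising. At day 12 they were 0.025, 0.054 and 0.232 at 3, 9 and 18 months, where the cytosolic genes had 0.902, 0.798 and 0.506. The difference between the sets was not tested.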

How the data were processed

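Microglia sorted from single retinas were profiled by poly(A) RNA-seq (SMART-Seq v4, Nextera XT). Per the study's methods, reads were mapped with STAR (2.7.8a in the submitters' processing notes) to mm10 and counted with featureCounts over refGene, and ComBat_seq adjusted the counts for collection day. The files hold gene counts deposited by the authors before and after this adjustment. The adjusted counts of 62 libraries were fitted in 1 model of 18 group means (age, sex and day) with edgeR 4.0.16 (R 4.3.3) by quasi-likelihood, after TMM scaling and filterByExpr. Levels are log2 CPM with a prior count of 2, and CPM values of single genes are counts divided by the TMM-scaled library size, with no prior count. Contrasts of a day with naive average the differences of both sexes. A call is a two-sided Benjamini-Hochberg adjusted p, over all genes, under 0.05 for day against naive and under 0.1 for age, age by day and sex by day. The adjusted counts were tested as they are, so the test does not see the uncertainty of the adjustment, and p-values measure the spread between retinas.

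The genes follow a rule on symbols alone, but this group of genes and the other lists were chosen with earlier results of these data known. Named genes are those with the 3 smallest p-values among calls in each direction of each comparison of a day with naive (2 in the other lists), the 3 highest and 3 lowest mean levels, and a fixed set of paralogs and well-known members, and genes named beyond these were chosen after their values were seen. Paired numbers were checked: same-numbered libraries of different groups had a mean correlation of -0.0114 over 464 pairs, against 0.00407 over 1348 other pairs. No 2 of 79 within-group pairs held identical values. On counts simulated for day 12 of 3 months with 200 genes changed by a log2 of 1, 121 (60.5%) were recovered with 4 false calls among 13189 genes. Alternatives were DESeq2 1.42.0, other scalings, no filter, uncorrected counts, other sets of libraries and leaving out each library. Some genes that the rule names are withheld and not reported here.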

Additional observations from a re-analysis of the deposited data

Results flagged for a closer look

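Within groups of 4 to 10 libraries, the highest or lowest value was tested against Dixon's critical value for the mean level of the 82 genes and for the genes named by rank in the comparisons with naive. Of 108 groups checked 18 passed, where chance alone would pass about 5%, and the genes of 1 library are not independent. For the mean level in log2 CPM, 9-month male naive replicate 2 was at 3.71 with the nearest of the group at 4.58. The 18-month male day 28 replicate 4, the library with 2 time labels, was at 4.23 with the nearest at 4.88. The 3-month female day 12 replicate 4 was at 5.46 among the 4 libraries of its sex, with the nearest at 5.35.

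Most of the single genes that passed lay in 3 libraries with F-named columns. In 3-month female naive replicate 4, log2 CPM was 6.13 for *Rpl32*, 3.46 for *Rpl37a* and 7.17 for *Rps9*, each the lowest of its group. In 9-month male naive replicate 2, it was 6.34 for *Rpl32* and 5.04 for *Rps20*. In 18-month male day 28 replicate 4, it was 6.95 for *Rpl32*, 4.24 for *Rpl37a*, 6.56 for *Rpl41*, 5.52 for *Rps20* and 4.88 for *Rps21*. Outside these, *Rpl4* was low at 8.14 in 9-month male day 12 replicate 1 and *Rps20* low at 7.34 in 3-month male day 12 replicate 3. High values were 5.49 for *Rps2* in 9-month female naive replicate 1, 7.09 for *Rps21* in 3-month male day 28 replicate 1 and 8.66 for *Rps9* in 18-month female naive replicate 1.

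The 2 libraries left out of the comparisons were above the naive libraries of their labelled age and collection day in the uncorrected counts. The library labelled 9-month male day 28 replicate 1 had a mean level of 4.54, with the highest of 2 naive libraries at 4.19. The library labelled 18-month female day 28 replicate 1 had 4.65, with the highest of 3 naive libraries at 4.57. The sex-linked genes of both go against their labels, and their age and day are taken from the labels alone. Set against the 18-month naive libraries of that collection day, 4.54 lies below the highest at 4.57.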

How the results depend on the processing

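The mean level of the 82 genes kept its direction in all 6 comparisons with naive under every alternative run. Over other scalings, prior count, summary, uncorrected counts and omission of the F-named columns it ranged over 0.691 to 0.935, 0.418 to 0.643, 0.501 to 0.774, 0.5 to 0.889, 0.305 to 0.489 and 0.167 to 0.366 (days 12 and 28 at 3, 9 and 18 months in turn), and without 1 library over 0.701 to 0.839, 0.447 to 0.585, 0.486 to 0.971, 0.491 to 0.977, 0.316 to 0.586 and 0.191 to 0.357. Counts of genes that passed were less stable than that mean, and the cause of each shift was not tested unless the alternative's construction shows it.

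Without 1 library, the 52, 13, 42, 26, 20 and 1 genes became 47 to 52, 4 to 18, 6 to 50, 0 to 39, 7 to 28 and 1 to 3, and the counts of 0 in the age, age by day and sex by day comparisons stayed at 0 to 0. Uncorrected counts with no batch term gave 27 and 0 at days 12 and 28 of 3 months, 14 and 0 at 9 months and 7 at day 12 of 18 months. At day 28, 22 genes at 3 months and 47 at 9 months then had an unadjusted p under 0.05. With the collection day as a term, 2 passed at day 28 of 18 months. DESeq2 gave 22 at day 28 of 3 months, 4 at day 28 of 18 months and 1 for the change to day 12 at 18 against 3 months (*Rps4x*). Library totals gave 5 at day 28 of 3 months, and 8 and 2 at days 12 and 28 of 18 months. They moved the median of all genes to -0.106, -0.139 and -0.118 at days 12 and 28 of 3 months and day 12 of 18 months, with 0.8, 0.423 and 0.337 over the 82 genes. No filter gave 24 at day 28 of 3 months and 1 each (*Rpl39l*) for the change to day 12 at 9 and at 18 against 3 months. Fitting each age alone, with fewer libraries to estimate the spread, gave 39 at day 28 of 3 months and 7 at day 28 of 9 months. Placing the library with 2 labels at day 12 gave 11 at day 12 of 18 months, and including the left-out library with a column gave 3 at day 28 of 18 months. Without the 5 libraries of F-named columns, added after seeing the data, 17 and 3 passed at days 12 and 28 of 9 months and 7 at day 28 of 18 months.

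With the replicate number as a block the counts were 51, 10, 37, 19, 20 and 1, and 0 in the others, and the numbers pair no libraries by the check. Of 5141 values for named genes under the alternatives, 4726 stayed on their side of the threshold, 319 lost and 96 gained a call, and 0 turned direction with a call.

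Depth limits the genes near 1 CPM, which is under 3 counts in the shallowest libraries, and shared sequence limits those with a low unique share. The 9-month results rest on 2 male naive libraries at mean levels of 4.68 and 3.71.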
